A study of Mus musculus with 2 samples.

Results

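The 9 genes described here are the receptors, effectors and modulators of Hedgehog signalling that were listed by symbol: the receptor Ptch1, the transducer Smo, the co-receptors Gas1, Boc and Cdon, the ligand-trapping protein Hhip, and the transcription factors Gli1, Gli2 and Gli3. They were taken by an exact match of symbol, and all 9 were found among the 34285 genes of both count matrices. Single cells came from mandibular first molars and surrounding tissue of C57BL/6J mice at PN15.5, where PN gives the postnatal day. The Lipo-Clo mice had been injected intraperitoneally with clodronate liposomes, which deplete macrophages, at 40 μg/g on 4 days from PN3.5 to PN12.5, and the Lipo-PBS mice with the same volume of vehicle liposomes on the same days. Each condition is 1 library, and the sources used here do not say how many mice it holds, so no test between conditions was possible and no value below has a replicate check. Both libraries carry the same batch label. These are wild-type mice, and no reporter or deleted allele is involved.

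Hedgehog ligands bind Ptch1 on the receiving cell, which releases Smo from inhibition. Smo acts at the primary cilium, where it shifts Gli2 and Gli3 from repressor towards activator forms. Gli1, Ptch1 and Hhip are themselves transcribed in response to the signal and are widely read as its output, while Gas1, Boc and Cdon help cells to bind ligand and are often lower where signalling is high. In the growing tooth root, Hedgehog ligand comes from the epithelial root sheath, and Gli1 marks mesenchymal progenitors of the root and periodontium. The study used this series to ask how mesenchymal cells differ when macrophages are depleted.

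The Lipo-Clo library held 9362 cells with 31053404 unique molecular identifiers (UMIs, each counted as 1 RNA molecule) and the Lipo-PBS library 9653 cells with 30537834 UMIs. After removal of poor cells and doublets, 8254 and 8261 cells remained, of which 4266 and 4071 were dental mesenchyme, with medians of 2830 and 2952 UMIs. The general mesenchymal markers were found there, with Col1a1 in 98.7%, Lum in 87.5% and Prrx1 in 42.7% of the cells, and Col1a1 was also seen in 79.6% of the other kept cells. Of 25 clusters, 6 stayed unnamed. A cluster that carried markers of several lineages held 750 Lipo-PBS cells and 12 Lipo-Clo cells and was left out. The libraries also differed in the RNA of other lineages inside the mesenchyme: the 8 neutrophil markers summed to 476 counts per 1000000 UMIs (CPM) in Lipo-Clo and 106 in Lipo-PBS, and the 6 erythroid markers to 27183 and 54650 CPM. Mitochondrial genes took 0.383% and 1.64% of mesenchymal UMIs, and 30 cell barcodes occurred in both libraries. For macrophages, the class depleted by clodronate, Lipo-Clo had 120 cells and Lipo-PBS 169. An unnamed cluster led by H2-Eb1 and Cd74, with 118 and 139 cells, also carried macrophage markers, beside those of dendritic cells.

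The mesenchyme was divided into 10 states. Of these, 6 took a name from their markers and are only like the cell they are named after: a fibroblast-like state led by Clec3b and Tnxb, a dental follicle-like state led by Moxd1, an osteoblast or cementoblast-like state led by Ibsp, an odontoblast-like state led by Dspp, and 2 periodontal ligament-like states, led by Pappa2 and by Mgp. The other 4 are called here by their leading genes: the Lrrc4c state (with Egfem1 and Pcp4), the Pcp4 state (with Sfrp2 and Mmp13), the Ctnnd2 state (with Cntn4) and a state led by haemoglobin genes. Pcp4 is a leading gene of the Lrrc4c state too and was highest there, so the name Pcp4 state is only a label. The Lrrc4c state also carried cell cycle markers, among them Top2a and Cdk1. The members and the other Hedgehog genes were kept out of the genes that formed the clusters, so states are not defined by them. State sizes are not compared between conditions.

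The stretches just before the transcription start of Ptch1 and Hhip, which respond to the signal, and of Gli2, which helps to deliver it, are shown because the Gli proteins bind DNA at such places. Each is the 250 bases before the start, 5′ to 3′ on the gene's strand, from RefSeq on build GRCm38.p6. The deposited counts carry no coordinates, and the submitters name GRCm39 as their build. Ptch1 lies on the minus strand with this window at chr13:63565736-63565985, Hhip on the minus strand at chr8:80058009-80058258, and Gli2 on the minus strand at chr1:119053620-119053869. Capitals mark the core of the Gli binding motif where these letters occur.
Ptch1: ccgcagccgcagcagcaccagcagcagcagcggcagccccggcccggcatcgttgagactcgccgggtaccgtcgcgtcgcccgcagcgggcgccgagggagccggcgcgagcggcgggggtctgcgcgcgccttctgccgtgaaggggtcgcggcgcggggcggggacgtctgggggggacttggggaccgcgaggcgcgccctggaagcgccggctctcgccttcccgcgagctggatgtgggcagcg
Hhip: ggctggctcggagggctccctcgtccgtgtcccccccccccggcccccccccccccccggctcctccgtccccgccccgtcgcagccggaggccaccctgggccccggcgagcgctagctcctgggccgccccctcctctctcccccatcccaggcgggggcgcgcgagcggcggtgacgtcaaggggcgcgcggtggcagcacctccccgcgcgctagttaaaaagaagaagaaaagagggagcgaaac
Gli2: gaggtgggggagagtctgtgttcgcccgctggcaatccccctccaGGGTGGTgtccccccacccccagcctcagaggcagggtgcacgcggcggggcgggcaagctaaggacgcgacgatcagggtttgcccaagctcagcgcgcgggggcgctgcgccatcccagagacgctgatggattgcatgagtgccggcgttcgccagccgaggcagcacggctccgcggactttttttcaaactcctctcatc

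The full Gli motif GACCACCCA, searched on both strands, occurred in the windows of 0 of the 7 members with an entry in the table, and in 74 of 32851 windows of all genes (0.225%). Its inner part ACCACCC, which lies within the full motif, occurred in 1 of the 7, Gli2, where it is on the opposite strand 205 to 199 bases before the start. Over all genes 1289 windows held it (3.92%). The letters before Ptch1 and Hhip hold neither, which says nothing of sites elsewhere around these genes.

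The ligands were at the edge of detection. Shh, the ligand of the dental epithelium, had 14 UMIs, all of them in epithelium, 6 of them from Lipo-Clo (2.33 CPM, 95% Poisson interval 0.854 to 5.07) and 8 from Lipo-PBS (3.53 CPM, 1.53 to 6.96). They came from only 2 cells of Lipo-Clo and 4 of Lipo-PBS, and a Poisson interval does not cover such clumping. Mesenchyme held 0 Shh UMIs in either library, which at a floor of 3 UMIs allows levels of up to 0.210 CPM for Lipo-Clo and 0.223 CPM for Lipo-PBS. Ihh, the ligand of cartilage and bone, had 21 UMIs, of which 20 were mesenchymal and 16 lay in the osteoblast or cementoblast-like state, 8 in each library. Dhh, the ligand of Schwann cells, had 119 UMIs. Glial cells accounted for 24 of them in Lipo-Clo (79.4 CPM, 50.9 to 118) and for 58 in Lipo-PBS (102 CPM, 77.5 to 132). Each ligand thus had its own main source, where its intervals in the 2 libraries overlap. All intervals are at the 95% level, exact Poisson for UMIs and exact Clopper-Pearson for shares of cells, and cover counting error only.

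Most UMIs of each of the 9 members lay in mesenchyme, which took 52.7% of all UMIs of the kept cells. Such a share does not mean that the level was highest there. The mesenchymal share of a member's UMIs, over both libraries, was 81.4% for Gli1 (75.6 to 86.3), 78.3% for Gas1 (77.5 to 79.1) and 77.5% for Hhip (72.5 to 81.9). For Gli3 it was 73.0%, for Boc 71.5%, for Cdon 71.3%, for Smo 68.2%, for Ptch1 67.1% and for Gli2 64.1% (61.1 to 67.1). Among the 8 other named classes, the highest level of Ptch1 was in glia, the class that held Dhh. Lipo-Clo had 59.6 CPM and Lipo-PBS 49.3 CPM there, against 42.8 and 41.7 CPM in mesenchyme, with overlapping intervals. Gli2 had 26.0 and 30.9 CPM in epithelium and 31.4 and 21.8 CPM in perivascular cells. In mesenchyme it had 19.4 CPM (17.2 to 21.8) and 28.5 CPM (25.7 to 31.5). For Gli3 the highest of these classes was the epithelium, with 95.5 CPM (83.9 to 108) and 124 CPM (110 to 140). For Gas1 it was the perivascular cells, with 110 and 138 CPM. Gli1 had 7 UMIs in the whole epithelium and 8 in perivascular cells, and 0 in erythroid cells and glia.

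Within the mesenchyme the 3 pathway-responsive members were unevenly spread, and Gli1 and Ptch1 shared their leading states. Gli1 was highest in the Lrrc4c state, where Lipo-Clo had 36 UMIs (23.3 CPM, 16.3 to 32.2) and Lipo-PBS 12 (14.6 CPM, 7.57 to 25.6). The Pcp4 state followed, with 26 UMIs (16.5 CPM, 10.8 to 24.2) and 19 UMIs (15.9 CPM, 9.57 to 24.8). These 2 states do not differ in Gli1 beyond counting error in either library. Over both libraries they held 26.8% and 25.1% of the mesenchymal Gli1 UMIs, against 8.53% and 9.99% of all mesenchymal UMIs. The fibroblast-like state came next, at 8.72 CPM over both libraries (6.04 to 12.2), below the interval of the Lrrc4c state (14.9 to 26.9) and overlapping that of the Pcp4 state (11.8 to 21.7). The dental follicle-like state was lowest, with 2 Gli1 UMIs in all (0.484 CPM, 0.0586 to 1.75). The 6 states between them, at 2.72 to 4.33 CPM, overlap each other.

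Ptch1, the receptor that is also induced by the signal, was highest in the Pcp4 state, where Lipo-Clo had 112 CPM (177 UMIs, 96.5 to 130) and Lipo-PBS 130 CPM (155 UMIs, 110 to 152). The Lrrc4c state had 82.0 CPM (127 UMIs, 68.4 to 97.6) and 87.9 CPM (72 UMIs, 68.8 to 111), and the Ctnnd2 state 79.7 CPM (49 UMIs) and 84.8 CPM (35 UMIs). These 3 states stand above the other 7, whose levels over both libraries ran from 15.2 CPM in the dental follicle-like state to 37.8 CPM in the osteoblast or cementoblast-like state (31.8 to 44.6). The Lrrc4c and Ctnnd2 states do not differ in Ptch1, whereas the Pcp4 state lies above both over the libraries together (107 to 133, against 72.8 to 96.6 and 65.2 to 101). The Ctnnd2 state, rich in Ptch1, had 1 Gli1 UMI in Lipo-Clo (1.63 CPM) and 3 in Lipo-PBS (7.27 CPM). Over both libraries its Gli1 level of 3.89 CPM (1.06 to 9.96) overlaps that of the fibroblast-like state. Cells of the Ctnnd2 state were shallow, with medians of 1231 and 1547 UMIs.

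Hhip, which binds ligand and keeps it from Ptch1, followed another order. The Pcp4 state led with 38 UMIs in each library, which is 24.1 CPM (17.1 to 33.1) for Lipo-Clo and 31.8 CPM (22.5 to 43.6) for Lipo-PBS. The fibroblast-like state had 27 UMIs (18.9 CPM, 12.4 to 27.4) and 57 UMIs (23.1 CPM, 17.5 to 29.9). In the Mgp ligament-like state, Lipo-Clo had 3 (6.34 CPM, 1.31 to 18.5) and Lipo-PBS 36 (25.7 CPM, 18.0 to 35.6). Over both libraries these 3 states overlap, at 27.4, 21.6 and 20.8 CPM, and lie above all others. In the Lrrc4c state, where Gli1 was highest, Hhip had 12 UMIs in all (5.07 CPM, 2.62 to 8.85). The Ctnnd2 and odontoblast-like states had 0 Hhip UMIs, which at the same floor allows up to 4.88 and 4.45 CPM in Lipo-Clo, and 7.27 and 7.82 CPM in Lipo-PBS.

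**Figure D1:**
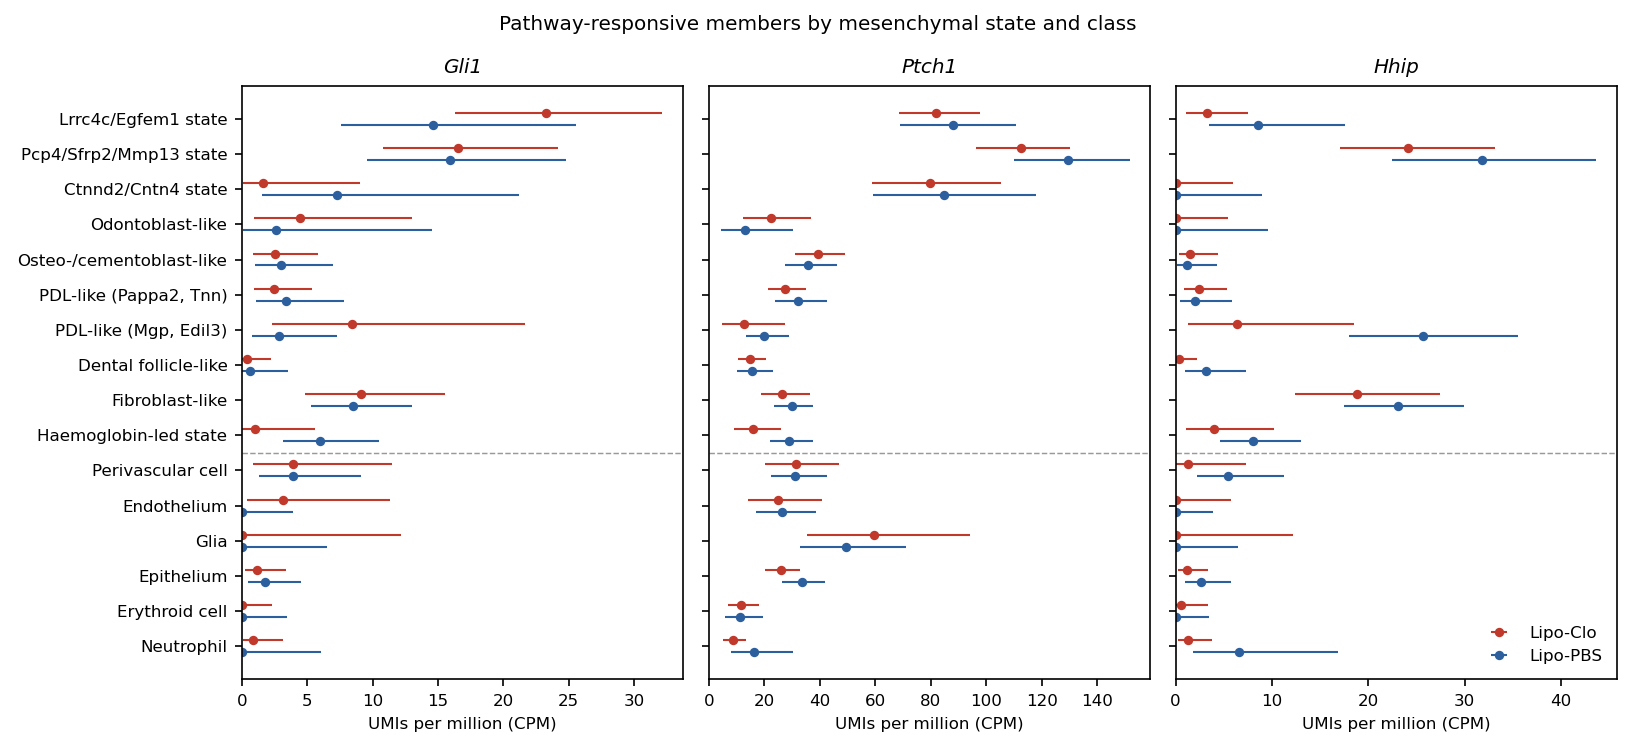
Levels of Gli1, Ptch1 and Hhip in each mesenchymal state (above the dashed line) and in 6 other classes (below it), as CPM with 95% Poisson intervals; red is Lipo-Clo, blue is Lipo-PBS, 1 library each, and each panel has its own axis. Gli1 peaks in the Lrrc4c and Pcp4 states, Ptch1 in these and the Ctnnd2 state, and Hhip in the Pcp4, fibroblast-like and Mgp ligament-like states, where the Mgp state shows 6.34 against 25.7 CPM.

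The co-receptors had another distribution, with Gas1 at its lowest where Gli1 was at its highest. Gas1, a membrane-anchored ligand-binding protein, peaked in the fibroblast-like state, where Lipo-Clo had 606 CPM (566 to 647) and Lipo-PBS 693 CPM (660 to 726). The Mgp ligament-like state followed at 387 and 445 CPM and the dental follicle-like state at 382 and 418 CPM, and these 2 overlap. In the Lrrc4c state Gas1 had 70 and 40 UMIs, or 45.2 CPM (35.2 to 57.1) and 48.8 CPM (34.9 to 66.5). Among classes that should lack the gene, neutrophils had 38.6 and 64.1 CPM, erythroid cells 22.7 and 103 CPM and B cells 15.6 and 37.7 CPM. In Lipo-Clo the Lrrc4c state lies above the erythroid and B cells. In Lipo-PBS it lies below the erythroid cells (84.6 to 124) and overlaps the B cells (20.6 to 63.3). It is not above the neutrophils of either library, and the part of background in its Gas1 was not tested. The odontoblast-like state, at 52.9 CPM over both libraries, overlaps it. The Pcp4 state, which was also rich in Gli1, had 295 and 228 CPM of Gas1.

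Cdon, an immunoglobulin-family co-receptor, was concentrated in the fibroblast-like state, which held 41.7% of its mesenchymal UMIs and 14.0% of all mesenchymal UMIs. There Lipo-Clo had 69.9 CPM (100 UMIs, 56.8 to 85.0) and Lipo-PBS 87.2 CPM (215 UMIs, 75.9 to 99.7). The Mgp ligament-like state was second at 39.5 CPM over both libraries (31.0 to 49.6), and the other 8 states ran from 8.50 to 21.9 CPM. Boc, the close relative of Cdon, was flatter. Its 3 leading states, Mgp ligament-like (45.3 CPM), fibroblast-like (42.1 CPM) and dental follicle-like (38.9 CPM), overlap each other, and the lowest, the haemoglobin-led state, had 18.6 CPM. In the Lrrc4c state, the Lipo-Clo cells had 23.3 CPM (36 UMIs, 16.3 to 32.2) and the Lipo-PBS cells 11.0 CPM (9 UMIs, 5.02 to 20.9).

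**Figure D2:**
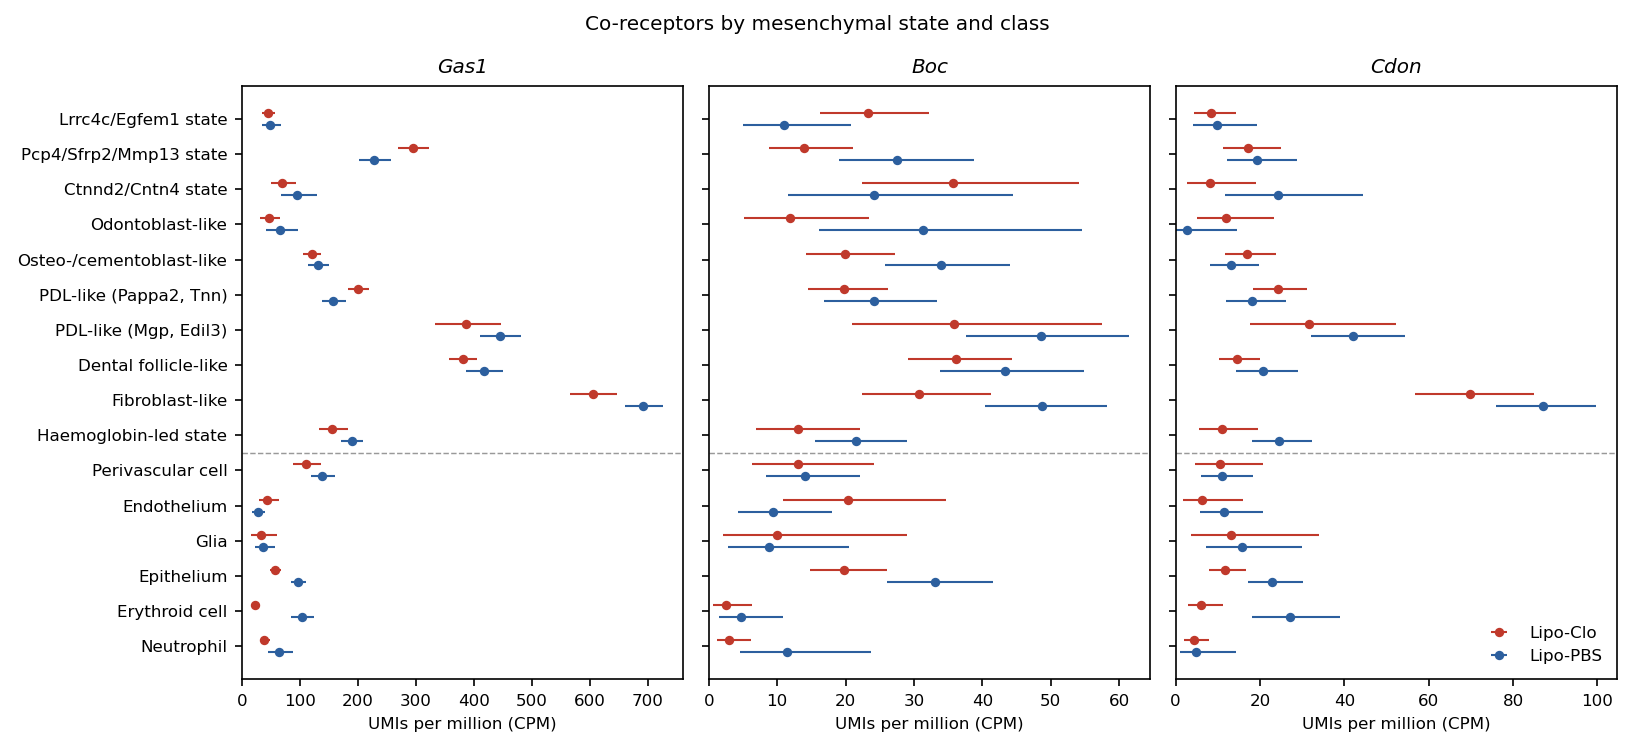
Levels of Gas1, Boc and Cdon by mesenchymal state (above the dashed line) and other class (below it), drawn as CPM with 95% Poisson intervals; red is Lipo-Clo, blue is Lipo-PBS, 1 library each, and each panel has its own axis. The fibroblast-like state leads for Gas1 (606 and 693 CPM) and Cdon (69.9 and 87.2 CPM), and the Lrrc4c state is the lowest for Gas1 over both libraries (46.5 CPM).

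The effectors were more widely spread. Gli3, the main repressor-forming factor, was found in every state, from 49.0 CPM in the fibroblast-like state (42.3 to 56.5) to 248 CPM in the Ctnnd2 state (219 to 280). The Lrrc4c state (218 CPM, 200 to 238) overlapped both the Ctnnd2 state and the dental follicle-like state (199 CPM, 185 to 213). The fibroblast-like state, lowest for Gli3, had 38.0 CPM (32.1 to 44.6) of Gli2, the main activator-forming factor, both libraries together. That was the second highest level, but its interval overlaps those of the 4 states that follow, among them the odontoblast-like (30.2 CPM) and Pcp4 states (29.2 CPM), and in Lipo-Clo the Pcp4 state had 28.6 against 27.9 CPM. Gli2 was again highest in the Ctnnd2 state, at 59.3 CPM (45.4 to 76.2), and lowest in the Pappa2 ligament-like state, at 10.9 CPM (7.92 to 14.7). Smo, the signal transducer, was highest in the Ctnnd2 state at 77.8 CPM (61.7 to 96.9), and the other 9 states lay between 24.6 and 45.6 CPM. So over both libraries the shallow Ctnnd2 state led for Smo, Gli2 and Gli3 and was among the 3 highest for Ptch1. For Gli3 this order held in Lipo-Clo, whereas in Lipo-PBS the Lrrc4c state (271 CPM) and the dental follicle-like state (253 CPM) were above the Ctnnd2 state (237 CPM), with overlapping intervals. The effect of the depth of the Ctnnd2 state on these levels was not tested.

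**Figure D3:**
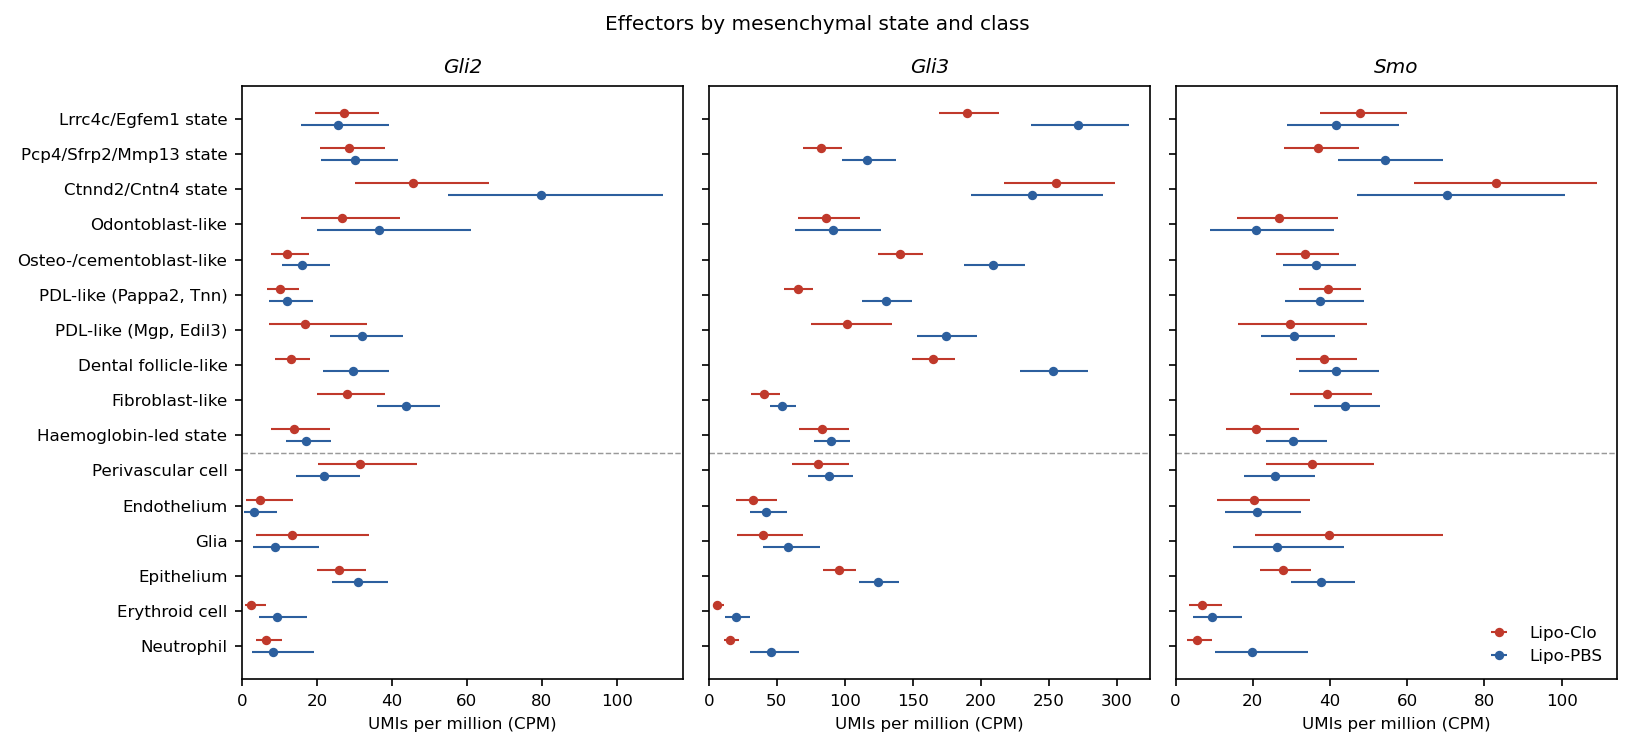
Levels of Gli2, Gli3 and Smo by mesenchymal state (above the dashed line) and other class (below it), shown as CPM with 95% Poisson intervals; red is Lipo-Clo, blue is Lipo-PBS, 1 library each, and each panel has its own axis. The Ctnnd2 state is the highest for all 3 genes over both libraries (59.3, 248 and 77.8 CPM), and Gli3 is lower in Lipo-Clo in 9 of the 10 states.

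A cluster of dividing cells, left unnamed because cell cycle genes led it, also carried members. In this cluster of 141 Lipo-Clo and 73 Lipo-PBS cells, Ptch1 had 39 UMIs (45.6 CPM, 32.4 to 62.3) and 26 UMIs (62.5 CPM, 40.9 to 91.6). Gli1 had 4 UMIs in each library. For Gli3 the Lipo-Clo cells had 63 UMIs (73.6 CPM, 56.6 to 94.2) and the Lipo-PBS cells 78 UMIs (188 CPM, 148 to 234). The log2 ratio was −1.35 (−1.85 to −0.85). The same held for Hhip, with 7 and 10 UMIs (−1.56, −3.19 to −0.01), and for Boc, with 12 and 14 UMIs (−1.26, −2.51 to −0.04), whose upper bounds were close to 0. The intervals of the other 6 members include 0.

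Gli1 was detected in 94 of 4266 mesenchymal cells of Lipo-Clo (2.20%, 1.78 to 2.69) and in 76 of 4071 of Lipo-PBS (1.87%, 1.47 to 2.33). With every cell thinned to 1000 UMIs, and the 382 and 282 shallower cells left out, the shares were 0.824% (32 cells) and 0.554% (21 cells), and their intervals overlap. The same thinning left 0% of erythroid cells, neutrophils and B cells with a Gli1 UMI in either library. Before thinning, neutrophils held 2 in Lipo-Clo and 0 in Lipo-PBS. In the Lrrc4c state 35 of 448 cells (7.81%, 5.5 to 10.7) and 10 of 216 cells (4.63%, 2.24 to 8.35) had Gli1, and in the Pcp4 state 26 of 398 (6.53%, 4.31 to 9.43) and 16 of 320 (5.00%, 2.88 to 7.99). The intervals of the 2 libraries overlap in both states.

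Of the other members, Ptch1 went most clearly with Gli1 in single cells. It was seen in 30 of the 94 Lipo-Clo cells with Gli1 (31.9%, 22.7 to 42.3) and in 11.1% of the other cells (10.2 to 12.1). In Lipo-PBS it was seen in 17 of 76 (22.4%, 13.6 to 33.4) and in 10.8% (9.89 to 11.8). Both intervals lie above those of the other cells, and cells with Gli1 also lay in other states: the other cells, weighted to the states of cells with Gli1, had Ptch1 in 18.4% and 15.9%, and the Lipo-PBS interval includes that value. Hhip was seen in 7 of 94 (7.45%, 3.05 to 14.7) and 5 of 76 (6.58%, 2.17 to 14.7), against 1.61% and 2.70% of other cells, and 2.91% and 3.69% in the same states. Its Lipo-PBS interval includes both comparison values, and its Lipo-Clo interval lies above both. For Gli2, Gli3, Smo, Gas1, Boc and Cdon the intervals of cells with Gli1 include the share of other cells of the same states in each library. Cells with Gli1 were deeper, with a median over both libraries of 3264.5 UMIs against 2891.

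Cells counted as dividing, with at least 2 UMIs over 6 cell cycle markers such as Mki67 and Top2a, made up 12 of the 94 Lipo-Clo cells with Gli1 (12.8%, 6.77 to 21.2) and 8 of the 76 Lipo-PBS cells (10.5%, 4.66 to 19.7). Other cells of the same states were dividing in 9.10% and 7.53%, inside both intervals. So within these states neither a library difference in dividing cells with Gli1 nor an excess over their states was detectable at this depth. The unnamed cluster of dividing cells is outside this comparison, although it carried mesenchymal markers such as Col1a1, Prrx1 and Pdgfra. By this measure 98.6% of its Lipo-Clo cells and 100% of its Lipo-PBS cells were dividing. It held 4 Gli1 UMIs in each library, which are not counted here. In the Lrrc4c state, highest for Gli1, 12.9% of Lipo-Clo and 18.1% of Lipo-PBS cells were dividing by this measure. The haemoglobin-led state had 19.8% and 13.0%, the Pcp4 state 10.3% and 8.44%, and the other states ran from 0.721% to 8.08%. When thinned to 1000 UMIs only 53 cells with Gli1 were left over both libraries, of which 6 had Ptch1 (11.3%, 4.27 to 23.0) against 4.13% of other cells and 6.20% in the same states.

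**Figure D4:**
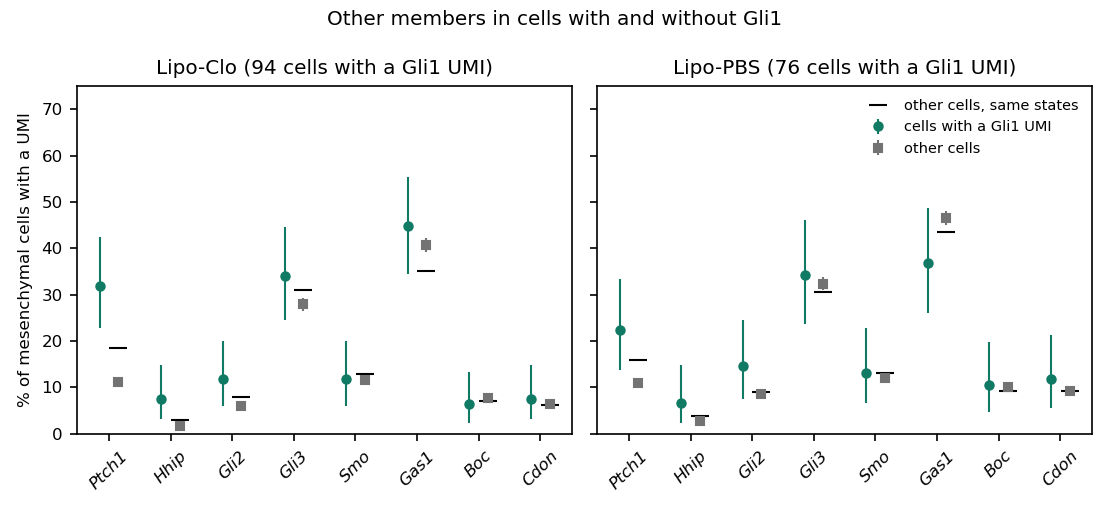
Share of mesenchymal cells, in percent and not thinned, with a UMI of each other member, in cells with a Gli1 UMI (green circles) and in all other cells (grey squares), with 95% Clopper-Pearson intervals; black bars are other cells weighted to the same states, and each panel is 1 library. Ptch1 stands out from all other cells, at 31.9% against 11.1% in Lipo-Clo and 22.4% against 10.8% in Lipo-PBS. Smo, Gas1, Boc and Cdon do not. In other cells of the same states Ptch1 was at 18.4% and 15.9%, and the Lipo-PBS interval includes its value.

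In the mesenchyme as a whole, Lipo-Clo differed from Lipo-PBS by lower levels of Hhip, of the co-receptors and of Gli2 and Gli3, while Gli1, Ptch1 and Smo were within counting error. Of the 9 members, all with at least 100 mesenchymal UMIs, 0 were at least 1.5-fold higher in Lipo-Clo and 2 were at least 1.5-fold lower, Hhip and Cdon. Among all 11671 genes with as many UMIs, 2.47% were that much higher and 6.23% that much lower. The members' median log2 ratio of Lipo-Clo over Lipo-PBS was −0.35, and that of all these genes −0.02. Of the members 7 were below 0, against 52.4% of all these genes. The whole interval lay below 0 for 6 members and above 0 for 0. Such intervals were common: among 36 other Hedgehog pathway genes with as many UMIs, 11 lay below 0 and 8 above. The share over all genes was not counted, so an interval that misses 0 does not set the members apart.

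Hhip UMIs numbered 87 in Lipo-Clo (6.08 CPM) and 164 in Lipo-PBS (12.2 CPM), a log2 ratio of −1.0 (−1.40 to −0.62). It was the member with the largest difference, at 2.01-fold lower. The share of cells with Hhip, thinned, was 0.695% and 1.06%, with overlapping intervals, and not thinned 1.73% (1.36 to 2.17) and 2.78% (2.29 to 3.33). All 4 states with at least 20 Hhip UMIs had less in Lipo-Clo, with log2 ratios from −2.02 to −0.29. Of these only the Mgp ligament-like state, where 3 and 36 UMIs were counted, was beyond counting error (−4.36 to −0.36). After each state was given an equal weight in the 2 libraries (the mean of its UMI shares), the ratio was −0.65. Erythroid cells held 1 and 0 Hhip UMIs. Neutrophils held 3 in Lipo-Clo (1.29 CPM) and 4 in Lipo-PBS (6.57 CPM), a log2 ratio of −2.35 (−5.12 to 0.21). That is the direction seen in mesenchyme, with an interval that includes 0, and the part of such background was not tested.

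Cdon had 309 UMIs (21.6 CPM) and 447 UMIs (33.3 CPM), a log2 ratio of −0.62 (−0.84 to −0.41). With the same mixture of states it was −0.26, short of the 1.5-fold limit. In the fibroblast-like state, where its level was highest, the ratio was −0.32 (−0.68 to 0.03). Of 8 states with at least 20 Cdon UMIs, 6 were lower in Lipo-Clo. Only the haemoglobin-led state was beyond counting error, at 11.0 against 24.5 CPM. The Pappa2 ligament-like state (0.42) and the osteoblast or cementoblast-like state (0.37) were higher, within counting error. Boc had 342 UMIs (23.9 CPM) and 457 UMIs (34.0 CPM), a log2 ratio of −0.51 (−0.71 to −0.30), and −0.44 with the same mixture. In 8 of 10 states Boc was lower in Lipo-Clo, and in 3 of them beyond counting error. The Lrrc4c state went the other way at 1.08, with a lower bound just above 0.

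Gas1 had 3515 UMIs (246 CPM) and 4207 UMIs (313 CPM), a log2 ratio of −0.35 (−0.41 to −0.28) that shrank to −0.08 with the same mixture of states. By state it was lower beyond counting error in the fibroblast-like (606 against 693 CPM) and haemoglobin-led states (156 against 189 CPM). It was higher beyond counting error in the Pappa2 ligament-like state, at 200 against 157 CPM, and in the Pcp4 state, at 295 against 228 CPM. Gas1 in erythroid cells was at 22.7 CPM (16.0 to 31.3) for Lipo-Clo and 103 CPM (84.6 to 124) for Lipo-PBS, and thinned shares of erythroid cells, neutrophils and B cells with Gas1 ran from 1.92% to 8.48%, against 19.9% and 24.7% of mesenchymal cells. Cdon in erythroid cells was likewise 6.13 and 27.1 CPM. In this class, which should lack both genes, their RNA thus differed between the libraries in the direction seen in mesenchyme, and the part of such background in the mesenchymal difference was not tested. Boc had 4 and 5 UMIs in erythroid cells, and in neutrophils it was at 3.01 and 11.5 CPM, with 7 UMIs in each library (−1.94, −3.68 to −0.20). That is again the direction seen in mesenchyme, and its part was not tested.

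Gli3 had 1687 UMIs (118 CPM) and 1997 UMIs (149 CPM), a log2 ratio of −0.33 (−0.43 to −0.24). In 9 of 10 states Gli3 was lower in Lipo-Clo, beyond counting error in 6. It was also lower in all 6 other classes with at least 20 of its UMIs. Of these classes only 3 were beyond counting error, namely epithelium, erythroid cells and neutrophils. With the same mixture of states the ratio was −0.53. In the Pappa2 ligament-like state Lipo-Clo had 65.3 CPM (55.5 to 76.3) and Lipo-PBS 130 CPM (112 to 149), and the dental follicle-like state 165 CPM (149 to 181) and 253 CPM (229 to 279). The exception was the Ctnnd2 state, with 255 and 237 CPM. Neutrophils (15.9 and 46.0 CPM) and erythroid cells (6.13 and 19.7 CPM) also showed less Gli3 RNA in Lipo-Clo, and the part of this background in the mesenchymal difference was not tested.

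Gli2 had 277 UMIs (19.4 CPM) and 383 UMIs (28.5 CPM), a log2 ratio of −0.56 (−0.79 to −0.33), just inside the limit of 0.58. In 9 of 10 states Lipo-Clo had less Gli2, beyond counting error in the dental follicle-like (13.0 against 29.6 CPM), fibroblast-like (27.9 against 43.8 CPM) and Ctnnd2 states (45.5 against 79.9 CPM). The same mixture of states gave −0.53. Erythroid cells held 4 Gli2 UMIs in Lipo-Clo (2.45 CPM) and 10 in Lipo-PBS (9.36 CPM), and the part of such background was not tested.

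For the 3 remaining members no difference was detectable in mesenchyme as a whole at this depth. Gli1 had 96 UMIs (6.71 CPM) and 83 UMIs (6.18 CPM), a log2 ratio of 0.12 (−0.32 to 0.56), and its 3 states with at least 20 UMIs had ratios from 0.06 to 0.67, none beyond counting error. The largest was in the Lrrc4c state, with 23.3 CPM against 14.6 CPM. Ptch1 had 612 UMIs (42.8 CPM) and 560 UMIs (41.7 CPM), a log2 ratio of 0.04 (−0.13 to 0.21). In 8 of 10 states Ptch1 was lower in Lipo-Clo, and only the haemoglobin-led state, with 16.0 against 29.0 CPM, was beyond counting error. Smo had 553 UMIs (38.7 CPM) and 531 UMIs (39.5 CPM), a log2 ratio of −0.03 (−0.21 to 0.14). Of its 10 states only the Pcp4 state was beyond counting error, at 36.8 against 54.4 CPM (−0.56, −1.10 to −0.03). With the same mixture of states the ratios were 0.08 for Gli1 and −0.11 for Smo, while that of Ptch1 turned to −0.16, outside its counting interval. The intervals bound a difference in Ptch1 and Smo more tightly than in Gli1.

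**Figure D5:**
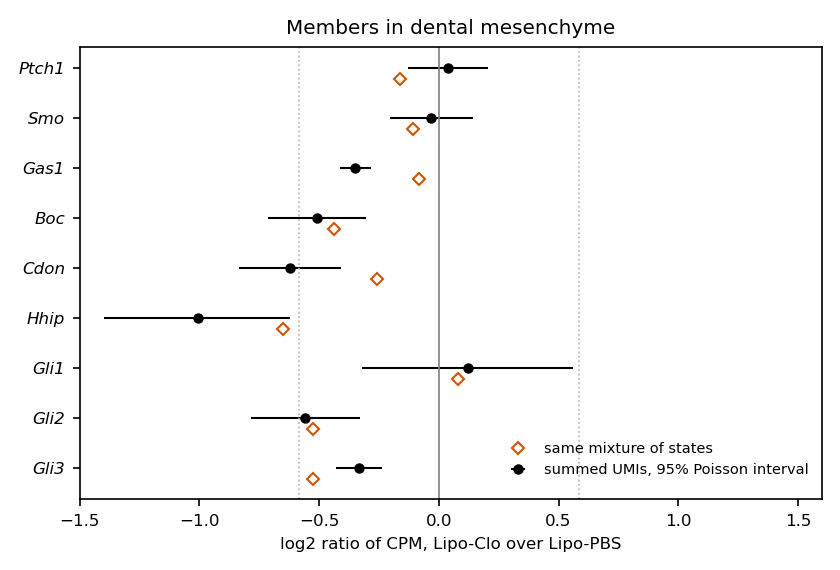
Log2 ratio of CPM in dental mesenchyme, Lipo-Clo over Lipo-PBS, for the 9 members; black circles with 95% Poisson intervals are summed UMIs, open diamonds give each state an equal weight in the 2 libraries, and dotted lines mark the 1.5-fold limits. Hhip lies lowest at −1.0, Gli1, Ptch1 and Smo cross 0, and the diamonds of Gas1 (−0.08) and Cdon (−0.26) lie nearer to 0 than their circles.

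The rest of the pathway moved less. A list of 54 genes was used, of which 45 had at least 100 mesenchymal UMIs. Of these 0 were at least 1.5-fold higher and 2 at least 1.5-fold lower, against 2.47% and 6.23% of all genes with as many UMIs. Both were members, Hhip and Cdon. Without the members 36 genes remained, 22 below 0 and 14 above, with a median log2 ratio of −0.05. Over all genes with as many UMIs, 52.4% were below 0 and the median was −0.02.

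Among genes that make or release ligand, Scube3 (0.55, 0.36 to 0.75) and Scube1 (0.32) were the highest and Disp1 (−0.44) and Scube2 (−0.43) the lowest. Scube proteins carry ligand away from the cell and Disp1 exports it. Among receptors and ligand-binding proteins, the genes in use were the members Ptch1, Smo, Gas1, Boc, Cdon and Hhip, and the ligand-binding glypican Gpc3. Their median of −0.45 was the lowest of the 5 groups and is the value of Gpc3 itself. The group thus adds only Gpc3 to the members. Ptch1 (0.04) and Smo (−0.03) were the highest in it and Hhip and Cdon the lowest. In the group of signal relay and Gli control the kinase Grk2 (0.32) was at the upper end, and Gli2 and Gli3 were the lowest.

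Of the 8 genes of ciliary transport 7 were below 0, against 52.4% of all genes in use, with Ift88 (0.16) and Tulp3 (−0.03) the highest. Only 2 of the 8 had their whole interval below 0. Arl13b, a small GTPase of the ciliary membrane, was the lowest (−0.53, −0.71 to −0.35), before the motor protein Kif3a (−0.22). Among the 8 targets in use the forkhead factors Foxf1 (0.42, 0.28 to 0.55) and Foxf2 (0.39, 0.25 to 0.53) were the highest, while Hhip and the survival gene Bcl2 (−0.26) were the lowest. The targets in use therefore did not share a direction. With their intervals 3 were above 0, among them Foxf1 and Foxf2, and 3 were below 0, among them Hhip and Bcl2. Gli1 and Ptch1 had intervals that include 0. Ratios with the same mixture of states were taken for the members only, so not for Foxf1 and Foxf2.

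Across the 10 states and 8 other named classes, both libraries summed, the levels of some members were alike. The Pearson correlation of log2(CPM + 10) was 0.85 between Gas1 and Cdon, 0.83 between Gli3 and Boc, 0.69 between Gli1 and Ptch1 and 0.66 between Gli1 and Hhip, over 18 points that share 2 libraries and differ in depth. Within the 10 states alone, Gas1 and Cdon had 0.84, Gli1 and Ptch1 0.73, Gli1 and Hhip 0.53 and Gli1 and Gas1 −0.18. Gli3 and Boc fell to 0.11 there, so their likeness was not seen among the mesenchymal states. Among 8512 genes seen in at least 10% of the cells of some state or class, the genes most like Gli1 were Vit (0.85), Pcp4 (0.85) and Frzb (0.84), which all peaked in the Lrrc4c state. Most like Ptch1 were Dcaf17 (0.91), Sgcd (0.86) and Hsd17b10 (0.85), and most like Hhip were Sfrp2 (0.90), Gm26771 (0.88) and Mfap4 (0.86). For the co-receptors they were Loxl1 (0.94), Tspan11 (0.92) and Col6a1 (0.92) with Gas1, Loxl1 (0.89), Nfix (0.88) and Rab23 (0.85) with Cdon, and Bmp1 (0.94), Cped1 (0.93) and Cdc14b (0.93) with Boc. For the effectors they were Setbp1 (0.92), Slit3 (0.88) and Fat1 (0.87) with Gli2, Ptk7 (0.92), Samd5 (0.92) and Macroh2a2 (0.91) with Gli3, and Laptm4a (0.94), Ddhd2 (0.94) and Csad (0.94) with Smo. These are descriptions over the same points and carry no test.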

How the data were processed

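The authors deposited raw UMI counts per gene and cell for each library. Per the file headers the tool was Cell Ranger 8.0.0, while the submitters' processing notes name Cell Ranger 3.1.0, Seurat 3.1.1 and build GRCm39. The annotation is not given in the sources used here. A cell needed 200 genes or more and no more than 20% mitochondrial UMIs (473 and 748 Lipo-Clo and Lipo-PBS cells failed on genes, 3 and 11 on mitochondrial UMIs). Scrublet's automatic threshold called 0 and 1 doublets, so the 632 and 633 highest scores, 0.8% per 1000 cells, were left out. Both libraries were clustered together with scanpy 1.11.5 and leidenalg 0.10.2 (counts scaled to 10000 per cell, 2000 variable genes without Hedgehog genes, 30 components, 20 neighbours, resolution 1; states with 20 components, resolution 0.6).

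The naming rules and unscaled components were settled after the leading genes of clusters had been seen. A cluster needed at least 3 markers at least 2-fold above the median cluster. The unnamed clusters held 580 and 1205 cells. UMIs were summed per library and unit and scaled to CPM by total UMIs; levels are not compared between genes. Ratios carry exact intervals for 2 Poisson counts, whose script was tested on simulated data. Genes were counted past a limit of 1.5-fold among those with at least 100 mesenchymal UMIs. Alternatives used TMM factors of edgeR 4.0.16 and size factors of DESeq2 1.42.0, among others. Named genes are the members, the ligands, the 2 highest and 2 lowest of each pathway group and the 3 genes most like each member; Gpc3 was named after its value was seen. A gene that this rule also names is not reported here. The members and lists were chosen with earlier results of these data known.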

Additional observations from a re-analysis of the deposited data

Results flagged for a closer look

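Gas1 and Boc went in opposite directions in different states or classes. Each value here is a log2 ratio of Lipo-Clo over Lipo-PBS whose counting interval lay wholly on its side of 0, with 1 library per condition. Only states and named classes with at least 20 UMIs of the gene are listed. The difference between states or classes was not tested, and the intervals are not adjusted for the number of states and classes looked at. For Gas1, 2 states were above 0, the Pappa2 ligament-like state at 0.35 and the Pcp4 state at 0.37. It was below 0 in the fibroblast-like state at −0.19, in the haemoglobin-led state at −0.28 and in epithelium at −0.77. In classes that should lack Gas1 it was also below 0, in neutrophils at −0.73, B cells at −1.27 and erythroid cells at −2.18. The part of background RNA in these values was not tested. For Boc, the Lrrc4c state was above 0 at 1.08 (0.0006 to 2.32), with 36 and 9 UMIs and a lower bound just above 0. The osteoblast or cementoblast-like state at −0.77, the fibroblast-like state at −0.66, the Pcp4 state at −0.98 and epithelium at −0.74 were below 0.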

How the results depend on the processing

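No paired analysis was possible because there is a single library on each side, and for the same reason no replicate could be left out. Over 15 alternatives, 3 of them chosen after seeing the data (without the haemoglobin-led state, with the dividing cluster, and with the cluster of several lineages), the 9 members gave 135 mesenchymal ratios, of which 120 stayed within the counting interval and 15 moved. Hhip, Gas1, Boc, Cdon, Gli2 and Gli3 were below 0 in all 15 alternatives. Gli1 ran from −0.03 to 0.62, Ptch1 from −0.16 to 0.20 and Smo from −0.11 to 0.08, so these 3 changed sign among them. Hhip stayed past the 1.5-fold limit in all 15 alternatives, Cdon in 10 and Gli2 passed it in 6, and Gli1 passed it on the higher side in 1, with thinning.

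The same mixture of states moved Gas1 to −0.084, Cdon to −0.26, Gli3 to −0.53 and Ptch1 to −0.16. Thinning to 1000 UMIs moved Gli1 to 0.62 and Gas1 to −0.45. Hhip was −1.59 with doublets kept and −1.51 with every cell kept. Gas1 was −0.44 with every cell kept, −0.41 at resolution 2, −0.42 with separate clustering and −0.43 as a mean over scaled cells, where Gli3 was −0.21. With the cluster of several lineages Gli3 was −0.19 and Gas1 −0.25. The log2 ratio of thinned shares for Gas1 was −0.16 at 2000 UMIs. The causes were not tested.

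Genes past the limit, 288 higher and 727 lower (28.4% higher), became 867 and 1433 at 20 UMIs, 40 and 239 among genes in at least 10% of cells (14.3% higher), 3595 and 4731 with no filter (43.2% higher), and 54 and 182 at 2-fold. TMM and DESeq2 factors gave 33.6% and 32.9% higher. Depth limits Gli1 and Hhip most.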
